A study of Mus musculus with 6 samples.

Results

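The genes of glycolysis, of glucose and lactate transport and of pyruvate dehydrogenase were examined in the hippocampus of p300+/- mice and wild-type littermates. Their probe sets were those whose platform annotation gives a single gene symbol from a list of 38 genes. A probe set is a group of short oligonucleotides that read 1 stretch of a transcript. The list was matched for 35 genes, of 18194 named singly on the array, by 73 of its 45101 probe sets. Gapdh was read only by 3 control probe sets, which were kept out of the test, so 70 probe sets of 34 genes were tested. Gpi1, Eno1 and Mpc2 were not analysed here, and 4 further probe sets that share a symbol of Gapdh or Hk1 with other genes were left out. The p300+/- animals are heterozygous for a deficiency of Ep300, the gene of a lysine acetyltransferase and transcriptional coactivator. The labels do not describe the allele. Both genotypes were 3-month-old females of the C57BL/6 strain, and no treatment is recorded. Each of the 6 Affymetrix Mouse Genome 430 2.0 arrays read a pool of hippocampal RNA from 4 animals, with 3 pools for p300+/- and 3 for wild-type. The submitters call the pools independent biological replicates.

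Glycolysis splits glucose into pyruvate in the cytosol. Glucose enters brain tissue through facilitative transporters, GLUT1 (Slc2a1) in vessels and glia and GLUT3 (Slc2a3) in neurons. Hexokinase traps it as glucose 6-phosphate, and phosphofructokinase commits it to breakdown. Pyruvate is then reduced to lactate, which monocarboxylate transporters move between cells, or enters mitochondria through the mitochondrial pyruvate carrier. There pyruvate dehydrogenase turns it into acetyl-CoA, under the control of inhibitory kinases and activating phosphatases. Acetyl-CoA is also the substrate of lysine acetyltransferases such as p300.

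The deposited values are log2 intensities relative to each probe set's median over the 6 arrays. They keep differences between arrays and hold no absolute level, so levels of different genes are not compared. A coarse class of the original level, set by the lowest of the 6 arrays, could be read from the number format of the values. It put 51 of the 70 member probe sets (72.9%) in the class from 8 to 16 on the log2 scale, against 30.2% of all 45037 tested probe sets. The other 19 members lay in the class from 4 to 8. Ep300 itself ran from -0.50 to -0.22 in p300+/- pools and from 0.22 to 0.40 in wild-type pools. Wild-type 2 and p300+/- 3 stood apart from the rest in markers of cell types. Markers of the choroid plexus, the epithelium that borders the hippocampus, averaged -2.42 in wild-type 2 and between -0.13 and 0.19 in the other 5 pools. Neuronal markers (26 probe sets of 10 genes) averaged -0.72 in wild-type 2 and -0.51 in p300+/- 3, against 0.11 to 0.15 in the other 4 pools. These 2 pools held the 2 lowest values in 18 of the 26 probe sets and the 2 highest in 0. The size of the difference varied within genes. In wild-type 2, Camk2a probe sets ran from -2.80 to -0.0055 and Syt1 probe sets from -2.58 to -0.18. Those of Map2 ran from -1.23 to 0.42.

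No member differed between genotypes past the threshold, in either direction. Of the 70 probe sets, 0 passed an adjusted p of 0.05 (limma, Benjamini-Hochberg over all 45037 probe sets), and over the whole array 0 passed, which is 0% of those tested. The smallest adjusted p among the members was 0.9999 (limma). Ep300 itself, with a log2 fold change of -0.66 ± 0.13 (SE), did not pass either (limma, adjusted p = 0.9999). Before adjustment, 2 member probe sets (2.86%), of Slc16a3 and Pfkfb3, had a p under 0.05, where 1.22% of all probe sets reached it. Both were higher in p300+/-, and 0.77% of all probe sets were higher at that level. With 3 arrays in each genotype, the smallest two-sided p that an exact permutation test allows is 0.1. In all, 45 member probe sets had higher and 25 had lower means in p300+/-. Their median log2 fold change was 0.039, and that of all tested probe sets was 0.0057. Higher means made up 64.3% of the members and 51.7% of all probe sets. The log2 fold change lay within 0.1 of 0 in 44 members and beyond 0.3 in 4. The median 95% interval reached 0.34 to either side, and in 50 members the interval lay inside a 1.5-fold change in both directions.

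**Figure D1:**
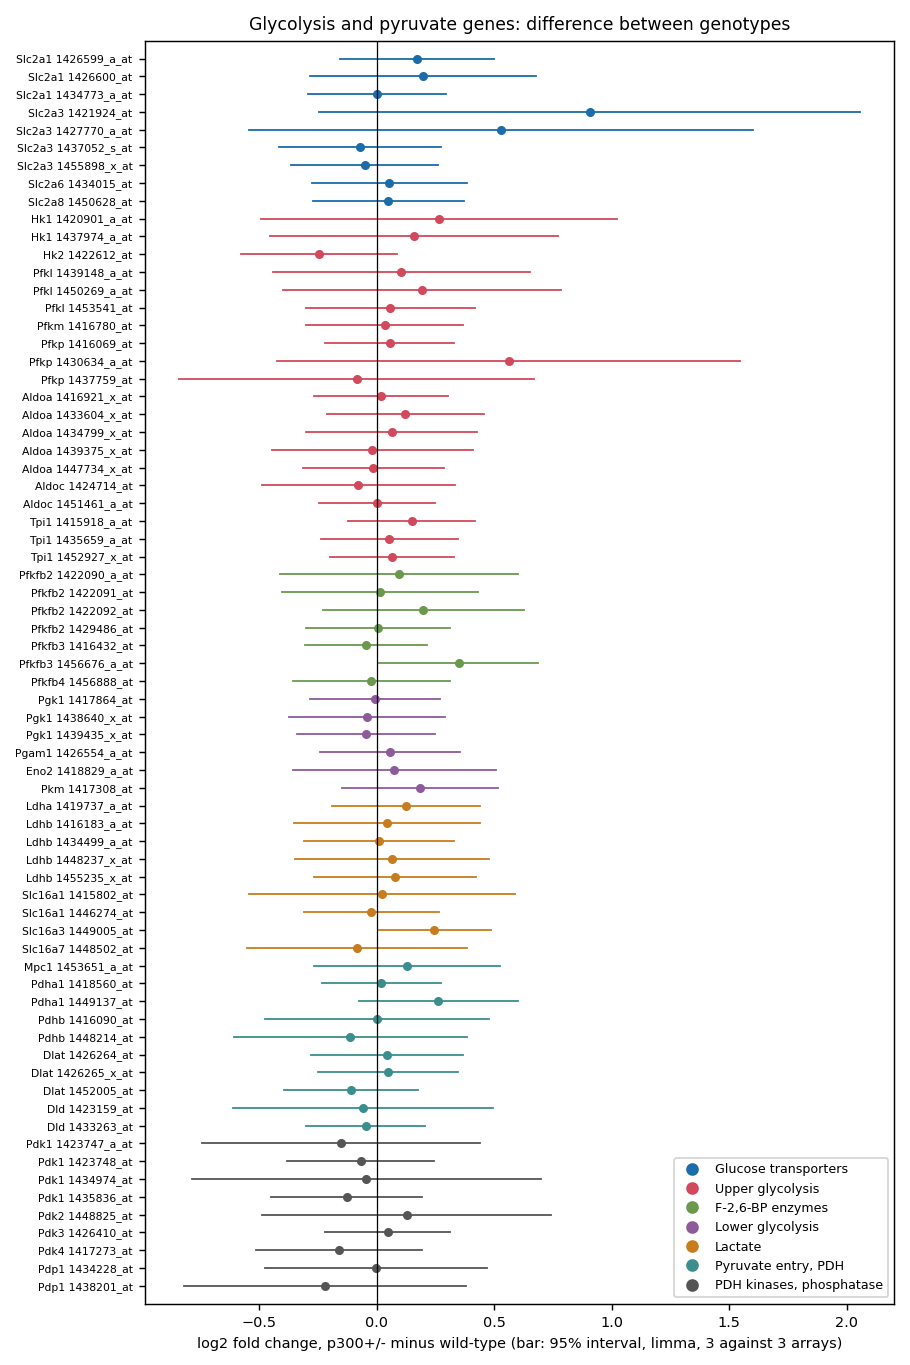
Log2 fold change (p300+/- minus wild-type) of each of the 70 member probe sets with its 95% interval from limma, 3 against 3 arrays, coloured by role. The intervals of Slc16a3 and of 1 Pfkfb3 probe set exclude 0 by little (lower bounds 0.0044 and 0.012), and the widest belong to Slc2a3 1421924_at and Slc2a3 1427770_a_at.

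The genotypes did not overlap in 2 of the 70 member probe sets, 1 of Slc16a3 and 1 of Pfkfb3, both higher in p300+/-. This is 2.86% of the members. Over all probe sets 5.39% did not overlap, and 3.19% were higher in p300+/- without overlap. Both member probe sets are in the level class from 4 to 8, which held 19 members. In the class from 8 to 16 the genotypes overlapped in all 51 members. Of all probe sets, 1272 of 23303 did not overlap in the class from 4 to 8 and 608 of 13613 in that from 8 to 16. Slc16a3 encodes MCT4, the monocarboxylate transporter that exports lactate from glycolytic cells such as astrocytes. Its only tested probe set, 1449005_at, read 0.095, 0.12 and 0.096 in p300+/- pools 1 to 3 and -0.15, -0.18 and -0.095 in the wild-type pools. The 3 p300+/- pools lay close together (mean 0.10 ± 0.014, SD, n = 3) and all above the wild-type pools (mean -0.14 ± 0.044, SD, n = 3). The log2 fold change was 0.25 ± 0.10 (SE), or 1.19-fold, and it stayed between 0.23 and 0.27 when any single array was left out. The unadjusted p was 0.0468 (limma) and the adjusted p 0.9999. Pfkfb3 encodes an enzyme that makes fructose 2,6-bisphosphate, the activator of phosphofructokinase. Its probe set 1456676_a_at read 0.0014, 0.41 and 0.21 in p300+/- and -0.0014, -0.15 and -0.27 in wild-type pools. The groups were parted only narrowly, by p300+/- 1 and wild-type 1. Its log2 fold change was 0.35 ± 0.14 (SE), a 1.27-fold difference, with an unadjusted p of 0.0443 (limma) and an adjusted p of 0.9999. It ran from 0.25 to 0.45 with 1 array left out. The other Pfkfb3 probe set, 1416432_at, is in the higher level class and gave -0.046 ± 0.11, so the gene's probe sets pointed in opposite directions.

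**Figure D2:**
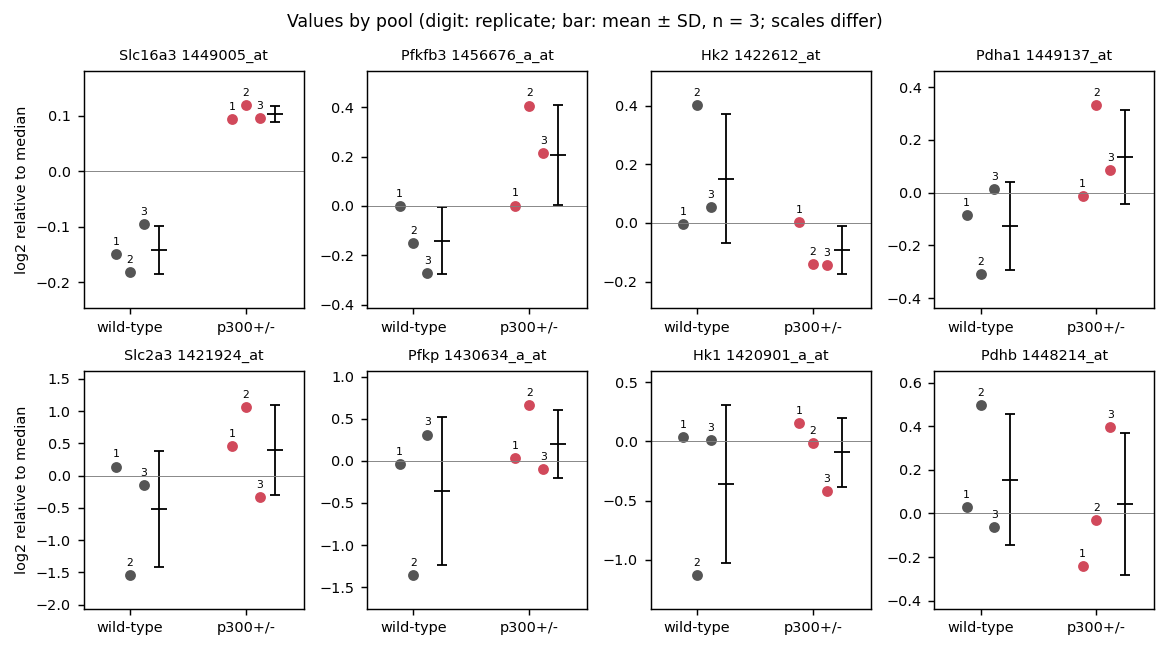
Log2 values of 8 member probe sets in each pool, relative to the median over the 6 arrays, with the mean and SD of each genotype (n = 3) and the replicate number beside each point. Slc16a3 and Pfkfb3 show no overlap of genotypes; in Slc2a3, Pfkp and Hk1 the lowest pool is wild-type 2, and in Pdhb the highest pools are wild-type 2 and p300+/- 3.

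Promoter windows are shown for these 2 genes and for Hk1, the brain hexokinase described next, because several glycolytic genes are known targets of hypoxia-inducible factors, which recruit p300. Each window runs from 250 bases before to 50 bases after a transcription start (RefSeq, GRCm38.p6) and is written in the direction of transcription. Capitals mark ACGTG, a form of the core of the hypoxia response element, or its reverse complement CACGT. Other forms of the core were not searched. Overlapping matches join in the palindrome CACGTG.
Slc16a3, chr11:120948817-120949116, plus strand: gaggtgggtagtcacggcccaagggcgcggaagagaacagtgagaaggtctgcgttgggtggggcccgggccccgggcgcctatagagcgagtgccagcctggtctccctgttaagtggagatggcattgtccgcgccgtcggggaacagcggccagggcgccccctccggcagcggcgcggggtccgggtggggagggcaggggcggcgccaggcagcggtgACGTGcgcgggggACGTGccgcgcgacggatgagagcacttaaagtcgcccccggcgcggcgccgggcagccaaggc
Pfkfb3, chr2:11553880-11554179, minus strand: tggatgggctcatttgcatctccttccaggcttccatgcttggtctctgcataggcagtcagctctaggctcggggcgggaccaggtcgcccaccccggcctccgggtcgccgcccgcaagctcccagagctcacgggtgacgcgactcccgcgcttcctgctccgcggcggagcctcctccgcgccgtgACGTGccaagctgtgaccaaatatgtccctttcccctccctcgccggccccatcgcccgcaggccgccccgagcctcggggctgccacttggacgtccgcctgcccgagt
Pfkfb3, chr2:11502041-11502340, minus strand: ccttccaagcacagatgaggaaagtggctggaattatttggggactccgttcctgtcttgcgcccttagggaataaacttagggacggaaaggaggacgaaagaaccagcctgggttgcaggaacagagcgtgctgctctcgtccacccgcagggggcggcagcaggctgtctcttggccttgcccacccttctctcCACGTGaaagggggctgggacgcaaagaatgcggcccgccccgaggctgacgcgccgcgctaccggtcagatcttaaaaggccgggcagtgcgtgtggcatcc
Hk1, chr10:62340372-62340671, minus strand: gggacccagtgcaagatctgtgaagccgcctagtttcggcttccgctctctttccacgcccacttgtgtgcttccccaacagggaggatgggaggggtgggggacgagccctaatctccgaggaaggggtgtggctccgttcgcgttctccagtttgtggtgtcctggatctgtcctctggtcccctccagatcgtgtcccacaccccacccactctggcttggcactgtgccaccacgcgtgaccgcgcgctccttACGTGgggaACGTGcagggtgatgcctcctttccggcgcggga
The Slc16a3 and Hk1 windows hold the letters in 2 places each, and the 2 Pfkfb3 windows in 1 place each, which in the second is the palindrome. The Hk1 window at the other start in the table (chr10:62379859-62380158) has no match. The Pfkl and Pfkp windows, not printed here, have no match either. The table held 47 windows for 32 members. Of these windows, 22 (46.8%) had at least 1 match on either strand, where 19.6% of all 32851 windows did. Some genes have several windows. By gene, 18 of the 32 members had a match, against 5886 of all 27025 genes. The palindrome CACGTG, which is also an E-box, was present in 12.8% of the member windows and 7.15% of all windows. Ldha had the window with the most matches, 5 when a palindrome is counted on both strands. These are letter matches in a short window, and base composition was not compared. Binding of hypoxia-inducible factors or p300 was not tested.

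Glucose transporter genes were read by 9 probe sets of 4 genes, and 7 had higher means in p300+/- (median log2 fold change 0.055). The GLUT3 gene Slc2a3 had the largest difference of all members and also the largest spread. Its probe set 1421924_at read 0.45, 1.06 and -0.34 in p300+/- pools and 0.14, -1.54 and -0.14 in wild-type pools. Wild-type 2 was far below all other pools, p300+/- 2 was highest, and the genotypes overlapped through p300+/- 3. The log2 fold change of 0.91 ± 0.49 (SE) did not pass (limma, adjusted p = 0.9999), and it was 0.39 without wild-type 2, 0.57 without p300+/- 2 and 1.27 without p300+/- 3. A second probe set, 1427770_a_at, followed the same order at its ends, with 1.11 in p300+/- 2 and -0.91 in wild-type 2. Its other values were 0.25 and -0.68 in p300+/- 1 and 3 and 0.19 and -0.19 in wild-type 1 and 3. Its log2 fold change was 0.53 ± 0.46, and it was 0.085 without p300+/- 2, 0.23 without wild-type 2 and 0.98 without p300+/- 3. The remaining Slc2a3 probe sets, 1437052_s_at and 1455898_x_at, gave -0.072 and -0.050.

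The GLUT1 gene Slc2a1 had smaller differences. Its probe set 1426599_a_at read 0.20, 0.068 and -0.073 in p300+/- and 0.00092, -0.32 and -0.00092 in wild-type pools, for a difference of 0.17 ± 0.14 (SE). Wild-type 2 was again lowest, and without it the difference was 0.066, while it was 0.10 without p300+/- 1. The other Slc2a1 probe sets gave 0.20 and 0.0021. Slc2a6 (GLUT6) and Slc2a8 (GLUT8), transporters found largely on intracellular membranes, were at 0.055 and 0.049. Of the 9 transporter probe sets, 8 had their 2 lowest values in wild-type 2 and p300+/- 3, and Slc2a6 was the exception.

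The enzymes from hexokinase to triose phosphate isomerase were read by 20 probe sets of 8 genes, 15 of them with higher means in p300+/- (median 0.057). Hk1, the hexokinase that binds brain mitochondria, had 2 probe sets that behaved alike. In 1420901_a_at the p300+/- pools read 0.15, -0.015 and -0.42 and the wild-type pools 0.038, -1.13 and 0.015. In 1437974_a_at they read 0.11, -0.024 and -0.36 against 0.024, -0.85 and 0.067. Wild-type 2 was lowest and p300+/- 3 next lowest in both, while the other 4 pools lay between -0.024 and 0.15. The log2 fold changes of 0.26 ± 0.32 and 0.16 ± 0.26 (SE) turned to -0.12 and -0.14 when wild-type 2 was left out. Hk2, the inducible hexokinase, had a lower mean in p300+/-. It read 0.0037, -0.14 and -0.14 in p300+/- and -0.0037, 0.40 and 0.054 in the wild-type pools, which gave a log2 fold change of -0.24 ± 0.14. Here wild-type 2 was highest, the genotypes overlapped slightly, and the value was -0.12 without that pool.

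Phosphofructokinase has liver (Pfkl), muscle (Pfkm) and platelet (Pfkp) subunits, all present in brain. The Pfkp probe set 1430634_a_at read 0.036, 0.66 and -0.091 in p300+/- and -0.036, -1.35 and 0.31 in wild-type pools. Its log2 fold change was 0.56 ± 0.42 (SE), and it ran from 0.065 without wild-type 2, which alone was far below the rest, to 0.90 without wild-type 3. The probe set 1437759_at of the same gene read 0.068, -0.068 and -0.51 against 0.47, -0.81 and 0.085. It gave -0.085 ± 0.32, with wild-type 2 and p300+/- 3 as the lowest pools. The third Pfkp probe set gave 0.056. The 3 Pfkl probe sets gave 0.19, 0.10 and 0.058, and their wild-type 2 values of -0.86, -0.72 and -0.27 were the lowest of the 6 pools each time. Pfkm was at 0.034.

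The aldolases and triose phosphate isomerase had small differences between genotypes. Aldoa, which cleaves fructose 1,6-bisphosphate, had 5 probe sets between -0.018 and 0.12. Aldoc, the aldolase of astrocytes, had 2 probe sets at -0.077 and 0.0016. Tpi1, which interconverts the triose phosphates, had 3 probe sets between 0.054 and 0.15. The Tpi1 probe set with the smallest p, 1415918_a_at, read 0.088, -0.030 and 0.11 in p300+/- and 0.030, -0.15 and -0.16 in the wild-type pools, which gave a log2 fold change of 0.15 ± 0.12 (SE). Its genotypes overlapped through p300+/- 2 and wild-type 1.

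Pfkfb2, Pfkfb3 and Pfkfb4 encode bifunctional enzymes that make and remove fructose 2,6-bisphosphate. Apart from the Pfkfb3 probe set above, their differences were near 0 or uncertain. The 4 Pfkfb2 probe sets gave 0.0061 to 0.20. The Pfkfb2 probe set 1422092_at read -0.16, 0.16 and 0.29 in p300+/- and 0.22, -0.24 and -0.29 in the wild-type pools, which gave a log2 fold change of 0.20 ± 0.18 (SE). With 1 array left out the value ran from 0.10 to 0.36. Its genotypes were mixed, since wild-type 1 lay above p300+/- 2 and p300+/- 1 lay among the low pools. Pfkfb4 was at -0.022.

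Lower glycolysis, from glyceraldehyde 3-phosphate dehydrogenase to pyruvate kinase, was the most even group across pools, with a median range over the 6 arrays of 0.38 against 0.48 for all probe sets. It was tested with 6 probe sets of 4 genes, 3 higher and 3 lower (median 0.025). Pkm, the pyruvate kinase of brain, read 0.11, 0.036 and -0.013 in p300+/- and 0.013, -0.40 and -0.029 in wild-type pools. Its log2 fold change of 0.18 ± 0.14 (SE) came to 0.052 without wild-type 2. Pgam1, a phosphoglycerate mutase, read -0.033, 0.11 and -0.0086 against 0.0086, -0.22 and 0.10, a log2 fold change of 0.057 ± 0.13. It was -0.033 without wild-type 2. Eno2, the neuron-specific enolase, was at 0.076, and its lowest values were again in wild-type 2 (-0.53) and p300+/- 3 (-0.31). Pgk1, phosphoglycerate kinase, had 3 probe sets between -0.045 and -0.0081.

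Gapdh was read only by the array's own control probe sets, placed at the 5' end, the middle and the 3' end of its transcript. Their differences between genotypes were 0.11 ± 0.11, 0.12 ± 0.12 and 0.034 ± 0.11 (SE). The 3' values ran from -0.059 to 0.069 over the 6 pools and the 5' values from -0.082 to 0.17. In wild-type 2 the 5', middle and 3' values were 0.011, 0.031 and 0.022, and in p300+/- 3 they were 0.17, 0.18 and 0.069. Neither pool was low in Gapdh at any of the 3 positions.

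Lactate genes other than Slc16a3 overlapped between genotypes in every probe set. Ldha, the lactate dehydrogenase subunit that favours lactate formation, read 0.052, -0.068 and 0.25 in p300+/- and -0.052, 0.090 and -0.18 in the wild-type pools, which gave a log2 fold change of 0.13 ± 0.13 (SE). It was 0.039 without p300+/- 3, which was the highest pool, and 0.20 without p300+/- 2. Ldhb, the subunit that favours lactate use, had 4 probe sets between 0.011 and 0.077, and p300+/- 3 was highest in each of them. Slc16a1 (MCT1), the transporter of endothelium and glia, varied widely within wild-type. Its probe set 1415802_at read 0.0022, 0.47 and -0.51 in wild-type pools and -0.15, -0.0022 and 0.19 in p300+/-, a log2 fold change of 0.022 ± 0.24. That value was -0.23 without wild-type 3 and 0.26 without wild-type 2, and the other Slc16a1 probe set was at -0.023. Slc16a7 (MCT2), the high-affinity transporter of neurons, was at -0.085, with 0.59 in wild-type 2 and at most 0.12 elsewhere. The 9 lactate probe sets had a median of 0.043, with 7 higher and 2 lower.

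The mitochondrial pyruvate carrier and the pyruvate dehydrogenase complex were read by 10 probe sets of 5 genes, with 6 higher and 4 lower in p300+/- (median 0.011). Pdha1 encodes the catalytic alpha subunit that the kinases phosphorylate. Its probe set 1449137_at read -0.013, 0.33 and 0.086 in p300+/- and -0.083, -0.31 and 0.013 in wild-type pools. The genotypes overlapped only through p300+/- 1 and wild-type 3, and the log2 fold change was 0.26 ± 0.14 (SE; limma, adjusted p = 0.9999). It was 0.16 without p300+/- 2 and 0.17 without wild-type 2. The other Pdha1 probe set gave 0.021, with a range over pools of 0.18. When both were averaged, the p300+/- pools all lay above the wild-type pools, at 0.14 ± 0.10 (SE). With Slc16a3 this makes 2 of 34 member genes, where 2.98% of all genes were higher without overlap. Pdhb, the beta subunit, had differences of 0.0017 ± 0.20 and -0.11 ± 0.21 (SE), with high values in wild-type 2 (0.53 and 0.50) and p300+/- 3 (0.40 and 0.40). Dlat, the acetyltransferase subunit, had 3 probe sets at -0.11, 0.046 and 0.048. The Dlat probe set 1452005_at read -0.069, 0.069 and -0.078 in p300+/- and -0.071, 0.20 and 0.12 in wild-type pools, at -0.11 ± 0.12. That value was -0.052 without wild-type 2, -0.19 without wild-type 1 and -0.013 with array weights. Dld, the dihydrolipoamide dehydrogenase, was at -0.057 and -0.047, and Mpc1, a carrier subunit, at 0.13.

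The regulators of pyruvate dehydrogenase were the only role group with a median below 0 (-0.067), with 2 of 9 probe sets higher and 7 lower. They also varied most between pools, with a median range of 0.73. All 4 probe sets of Pdk1, a kinase that inactivates the complex, were below 0, from -0.15 to -0.043. The Pdk1 probe set 1435836_at read -0.24, 0.14 and -0.12 in p300+/- and -0.048, 0.16 and 0.048 in wild-type pools, at -0.13 ± 0.14 (SE). It ran from -0.23 without p300+/- 2 to -0.045 without p300+/- 1. Pdk4, the kinase induced by fasting and glucocorticoids, read -0.22, -0.29 and 0.16 against -0.086, 0.13 and 0.086. Its log2 fold change was -0.16 ± 0.15, with p300+/- 3 as the highest pool of all. It was -0.30 without that pool and -0.074 without p300+/- 2. Pdp1, a phosphatase that reactivates the complex, had 1 probe set (1438201_at) at -0.22 ± 0.26, from -0.75, 0.066 and 0.020 in p300+/- and -0.31, 0.32 and -0.020 in wild-type. Without p300+/- 1 it was at 0.045. The other Pdp1 probe set was at -0.0020. Pdk2 read 0.037, -0.057 and 0.011 in p300+/- and -0.011, -0.75 and 0.37 in wild-type pools, at 0.13 ± 0.26, and -0.18 without wild-type 2. Pdk3 was at 0.047.

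Pool by pool, values of the members differed by role. In wild-type 2 the glucose transporters averaged -0.46 and the upper glycolytic enzymes -0.30, while the lactate genes averaged 0.16 and the pyruvate carrier and dehydrogenase subunits 0.19. In p300+/- 3 the same groups averaged -0.20, -0.050, 0.16 and 0.14. Wild-type 2 held the lowest of the 6 values in 23 of the 70 members (32.9%), against 18.4% of all probe sets. It held the highest in 18 members (25.7%), against 27.1% of all. Wild-type 2 and p300+/- 3 together held the 2 lowest values in 20 members (28.6%), where 15.8% of all probe sets did. They held the 2 highest values in 18 members (25.7%), where 21.4% of all probe sets did. The low cases came from 8 of 9 glucose transporter probe sets, 9 of 20 in upper glycolysis, 1 in lower glycolysis and 2 among the dehydrogenase regulators. The high cases included 6 of 9 lactate probe sets and 4 of 10 for the pyruvate carrier and dehydrogenase. The remaining high cases were 1 in upper glycolysis, 1 in lower glycolysis, 3 among the Pfkfb genes and 3 among the dehydrogenase regulators. Most members are in the level class from 8 to 16. There wild-type 2 was lowest in 17 of 51 members and in 3140 of all 13613 probe sets. The pair of wild-type 2 and p300+/- 3 held the 2 lowest values in 15 of those members and 2945 of those probe sets. It held the 2 highest in 14 and 3233. This pair of pools was chosen for counting after its values were seen.

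**Figure D3:**
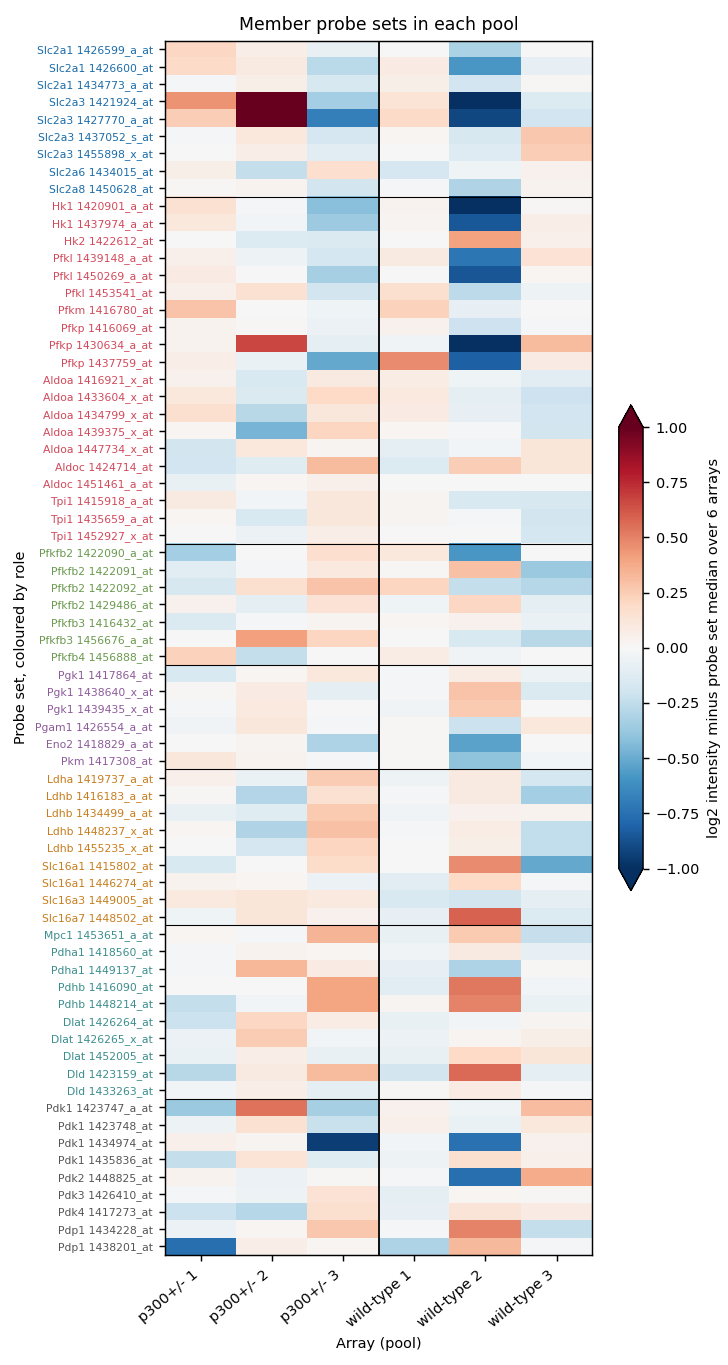
Log2 value of each of the 70 member probe sets in each of the 6 pools, relative to the probe set's median; the colour scale ends at -1 and 1, with values beyond it in the end colours. Blue cells gather in wild-type 2 for the glucose transporters, Hk1, Pfkl and Pfkp, with paler blue in p300+/- 3, and red cells for Pdhb, Dld 1423159_at and Pdp1 1434228_at occur in the same 2 pools.

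**Figure D4:**
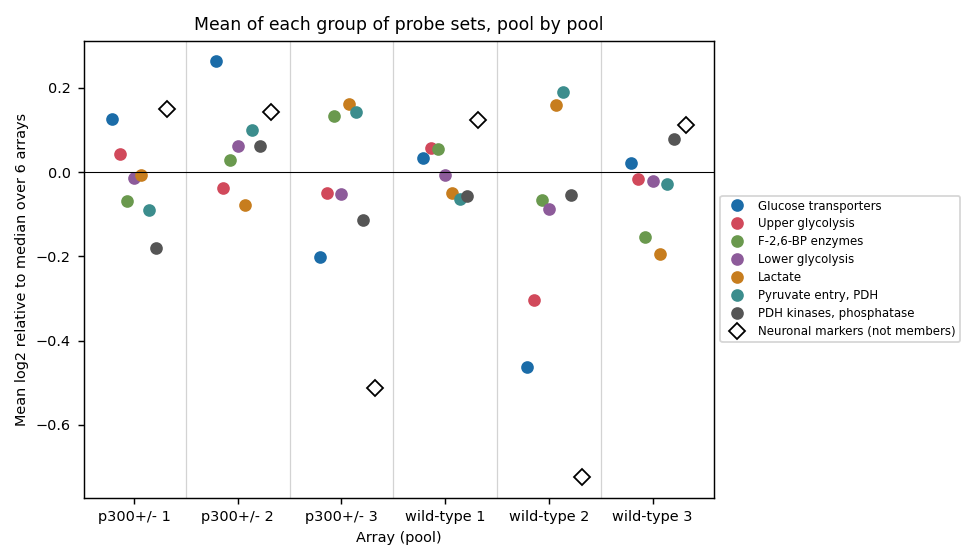
Mean log2 value of the probe sets of each role group in each pool, relative to the median over the 6 arrays, with the mean of 26 neuronal marker probe sets as open diamonds. In wild-type 2 the glucose transporters (-0.46), upper glycolysis (-0.30) and the neuronal markers (-0.72) lie below 0 while the lactate and pyruvate entry groups lie above it.

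These 2 pools also had the lowest means of the neuronal markers and of markers of hippocampal pyramidal and granule cells, which were -0.50 in wild-type 2 and -0.48 in p300+/- 3 against -0.10 to 0.21 elsewhere. The mean of the astrocyte markers lay between -0.063 and 0.0096 in all 6 pools, but their probe sets were not even. Their median range over the arrays was 0.62, against 0.48 for all probe sets. In wild-type 2 the Gfap probe sets read -0.86, -0.81 and 0.70, and those of Gja1 ran from -0.54 to 0.24. Oligodendrocyte markers averaged -0.22 in wild-type 2 and between -0.022 and 0.098 elsewhere. Endothelial markers averaged -0.23 in wild-type 2 and -0.14 in p300+/- 3, and from -0.032 to 0.30 in the other pools. Microglia markers ranged from -0.11 to 0.14 and blood cell markers from -0.24 to 0.61, with p300+/- 3 highest in both. The part of these markers in the members' values was not tested. In pooled tissue RNA, fewer cells of a type and less RNA per cell cannot be told apart. Nor do the list means show a shift shared by every probe set of a marker gene.

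Probe sets of the same gene often behaved differently. Of the 19 genes with several tested probe sets, 8 had members of both signs. The spread between probe sets was largest in Slc2a3, from -0.072 to 0.91, and in Pfkp, from -0.085 to 0.56. For Slc2a3 the range was 2.60 and 2.03 in the 2 probe sets of the lower level class and 0.44 and 0.37 in those of the higher class. The lowest array sets the class, so a wide range can itself put a probe set in the lower class. For Pdk1, all 4 probe sets had a mean below 0 but their pools differed. The probe set 1434974_at read 0.050, 0.030 and -0.94 in p300+/- and -0.030, -0.74 and 0.040 in wild-type pools, at -0.043 ± 0.32 (SE). In the other 3 Pdk1 probe sets wild-type 2 lay between -0.069 and 0.16. Averaged by gene, 22 genes were higher and 12 lower in p300+/-, 0 passed (limma, adjusted p = 0.9998 for each), and 1, Slc16a3, had an unadjusted p under 0.05. This is 64.7% of the member genes higher, against 57.6% of all 18193 genes averaged in the same way. An unadjusted p under 0.05 was reached by 2.94% of the member genes and 0.94% of all genes, and 0% of all genes passed.

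**Figure D5:**
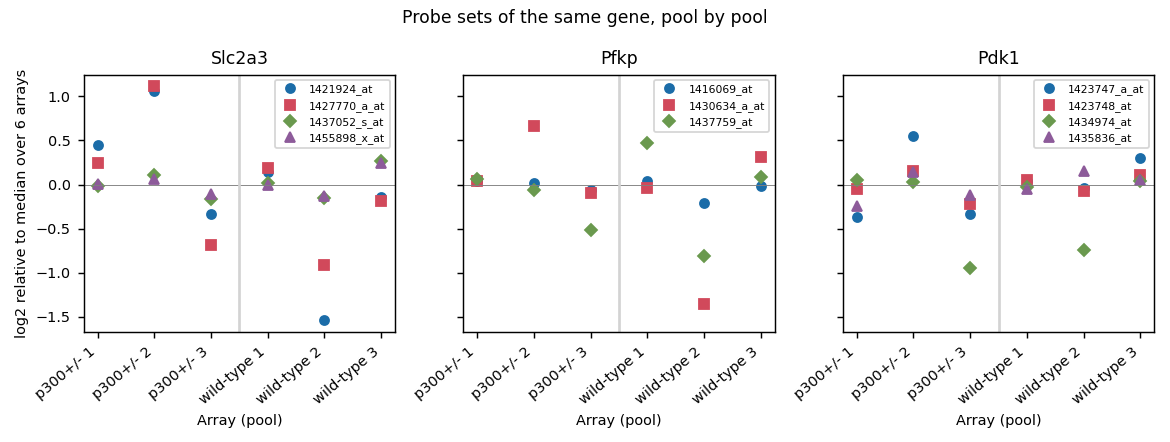
Log2 values of every tested probe set of Slc2a3, Pfkp and Pdk1 in each pool, relative to its own median over the 6 arrays; each symbol is 1 probe set. The 2 Slc2a3 probe sets with values of 1.06 and 1.11 in p300+/- 2 are at -1.54 and -0.91 in wild-type 2, while the other 2 stay between -0.17 and 0.27.

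Neighbouring pathways were described with 6 lists of 93 other genes, of which 85 were measured by 170 probe sets. In these lists 0 probe sets passed in either direction (limma), 2 (1.18%) had an unadjusted p under 0.05, where 1.22% of all probe sets did, and 7 (4.12%) had genotypes that did not overlap. All 7 were higher in p300+/-. Of all probe sets, 5.39% did not overlap in either direction and 3.19% were higher without overlap. The median log2 fold change over the 170 was 0.035. The genes named here are those of smallest p in each list. Emb, embigin, which escorts monocarboxylate transporters to the membrane, read 0.046, 0.12 and 0.43 in p300+/- and -0.20, -0.40 and -0.046 in wild-type pools (1415857_at). All p300+/- pools lay above all wild-type pools, at 0.41 ± 0.15 (SE), and the other Emb probe sets gave 0.16 and -0.17. Bsg, basigin, the partner of MCT1 and MCT4, read 0.28, -0.030 and 0.71 against -0.081, 0.030 and -0.24, at 0.41 ± 0.19, and 0.22 without p300+/- 3.

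Other lists gave similar small values. Of the 36 probe sets of the tricarboxylic acid cycle, 23 were higher (median 0.040), with Idh3b at 0.25 ± 0.15 (SE) and Sdhc at 0.19 ± 0.13. The other Idh3b probe sets lay on the other side of 0, at -0.061 and -0.014, and the other Sdhc probe set was at 0.25. The pentose phosphate pathway had 13 of 17 higher (median 0.075), with Pgd, 6-phosphogluconate dehydrogenase, at 0.19 ± 0.12 and Rpe at 0.18 ± 0.17. Other probe sets gave 0.050 to 0.14 for Pgd and -0.041 and 0.038 for Rpe. In glycogen metabolism 17 of 35 were higher (median -0.00073), with the synthase gene Gys1 at 0.20 ± 0.12 and the phosphorylase Pygm at 0.26 ± 0.16. The other Gys1 probe set had the opposite sign, at -0.023 ± 0.14. Redox shuttle genes had 13 of 27 higher (median -0.0068). They included the glycerol phosphate dehydrogenase Gpd1 at 0.48 ± 0.18, with 3 other probe sets between -0.054 and 0.086, and Slc25a11, the mitochondrial oxoglutarate carrier, at 0.22 ± 0.11. In gluconeogenesis 7 of 10 were higher (median 0.024), with Pck1 at 0.25 ± 0.14, whose other probe sets gave 0.0061 and 0.083, and G6pc3 at 0.14 ± 0.15. Other isoforms and accessory genes of glycolysis, Emb and Bsg included, had 32 of 45 higher (median 0.047). Txnip, whose product limits glucose uptake through GLUT1, read 0.42, 0.57 and 0.37 in p300+/- and -0.38, -0.37 and -0.50 in wild-type pools (1415997_at), a difference of 0.87 ± 0.11 (SE) without overlap and with an adjusted p of 0.9999 (limma). The other Txnip probe set, 1415996_at, overlapped, with 0.052, -0.052 and 0.11 in p300+/- and -0.28, 0.12 and -0.84 in wild-type pools, at 0.37 ± 0.23. Slc2a1 differed by at most 0.20 in its 3 probe sets.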

How the data were processed

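Hippocampal RNA of 3 p300+/- and 3 wild-type pools was read on Affymetrix Mouse Genome 430 2.0 arrays. GeneSpring GX produced the values, per the labels' protocols. Its version, probe set summary and normalization method were not given in the sources used here. Deposited log2 values have a median of 0 within 1e-06 in each of 45101 probe sets, so levels are lost. The single-precision rounding of the values shows the power of 2 that bounded the lowest original level of each probe set. This gave the level classes, and base 2 was inferred because these reach 8 to 16. Normalization sets how array-wide shifts appear in these values.

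After 64 control probe sets were left out, 45037 were tested with limma 3.58.1 in R 4.3.3 (p300+/- minus wild-type, no covariates, two-sided, Benjamini-Hochberg, threshold 0.05). The fit was also run on simulated data with independent noise, so that run does not cover correlations between these arrays. Members and lists were chosen with earlier results of these data known. Values in each array are given for the 10 members of smallest p, the 10 of largest range over arrays and, per role, the 2 genes of smallest p. Other values were given for contrast. Alternatives comprised quantile normalization, median centring, robust moderation, array weights, the replicate block and retention of control probe sets. Others left out each array, the probe sets with an x, s or a suffix, or the lowest level class (2 to 4) together with 294 probe sets without a class. Platform symbols came from GEO's annotation, and promoters from RefSeq GRCm38.p6. Figures used matplotlib 3.10.9. Nothing says that pools shared a day or batch, and the number of arrays limits the precision.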

Additional observations from a re-analysis of the deposited data

How the results depend on the processing

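The count of members past the threshold was 0 under every alternative run. The smallest adjusted p of a probe set given array by array was 0.974 (limma). A variance trend and pseudocounts were not run, because centred log values hold no level. The count at an unadjusted p under 0.05, 2 as reported, was 1 with array weights, with quantile normalization, among the 37 probe sets without an x, s or a suffix, and without both p300+/- 3 and wild-type 2. It was 0 with the replicate block and without the lowest level class and the probe sets without a class. With an array left out it ran from 0 to 2 (0 without wild-type 2 or wild-type 3). The lowest class, from 2 to 4, and the probe sets without a class held 0 members, so their omission kept all 70. The SE of Slc16a3 then went from 0.10 to 0.11. The count without overlap, 2 as reported, was 1 among those 37 and ran from 3 (4.29%, without wild-type 3) to 9 (12.9%, without p300+/- 2 or p300+/- 3) with an array left out. Over all probe sets these shares were 12.9%, 15.1% and 13.2%. It was 18 (25.7%) without both p300+/- 3 and wild-type 2, where 28.3% of all probe sets did not overlap. Fewer arrays overlap less by construction. Leaving out both pools was chosen after seeing the data. The median log2 fold change, 0.039 as reported, was 0.0098 with array weights, 0.024 with quantile normalization, 0.0017 for the 37 probe sets, 0.019 without both pools. Omitting single arrays gave 0.0057 (p300+/- 3 omitted) to 0.057 (wild-type 1 omitted). The cause was not tested.

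Of the 23 probe sets given array by array, 14 kept their direction under every alternative and 9 did not. With array weights Pdk2 was at -0.013 and Pfkfb2 1422092_at at -0.023. Without both pools Hk1 1437974_a_at was at -0.0034, Pdk1 1434974_at at 0.035, Pdk2 at -0.19 and Pgam1 at -0.017. With an array left out, Hk1 1420901_a_at ran from -0.12 to 0.46, Hk1 1437974_a_at from -0.14 to 0.32, Pdk1 1434974_at from -0.29 to 0.28, Pdk2 from -0.18 to 0.38, Pdp1 1438201_at from -0.37 to 0.045, Pfkp 1437759_at from -0.45 to 0.19, Pgam1 from -0.033 to 0.13 and Slc16a1 1415802_at from -0.23 to 0.26. For genes with several probe sets, the first in file order turned Dlat to 0.046, Pdhb to 0.0017, Pfkfb3 to -0.046 and Slc16a1 to 0.022. The highest level class turned Pdhb to 0.0017, Pfkfb3 to -0.046, Slc16a1 to 0.022 and Slc2a3 to -0.061.

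Correlations between arrays cannot settle whether the replicate numbers pair them, because deviations from a mean over 3 arrays sum to 0. Structure shared by pools of the 2 genotypes was not tested and is not in the main fit. Deviations from the genotype means correlated at 0.61, -0.23 and -0.47 for arrays of the same number. They correlated at 0.65 for p300+/- 3 with wild-type 2 and at 0.37 for p300+/- 2 with wild-type 3, so only the arrays numbered 1 correlated best with their own number. With the replicate block 0 members had an unadjusted p under 0.05 and 0 passed.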
